A study of Homo sapiens with 8 samples.

Results

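ERBB3, a receptor of the epidermal growth factor (EGF) receptor family, and 3 genes of EGF family ligands, NRG1, AREG and HBEGF, are described here in A375 melanoma cells, from a table of transcript clusters that the authors deposited. These genes were chosen by their gene symbol from a table that itself holds only clusters differing by at least 2-fold between the groups, so each of them differs by construction. They account for 4 of the 305 symbols and for 6 of the 491 clusters of that table, of which 5 are classed as coding and 1 as noncoding. A375 is a human melanoma cell line. The study set a line carrying a doxycycline-inducible lentiviral shRNA against PLK1, a kinase of mitosis (A375 shPLK1, 4 arrays), against a line carrying the nonsense shRNA (A375 shNS, 4 arrays). Cells of both lines received doxycycline for 48 h, and their total RNA was hybridized to Affymetrix Human Transcriptome Arrays. Each group rests on 1 line, so a difference between the lines and an effect of the knockdown cannot be told apart, and p-values over arrays measure the spread between cultures. As in any bulk RNA, fewer cells with a transcript and less of it per cell cannot be told apart either.

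The table gives 1 average per cluster for a group headed 5d and 1 for a group headed NS, both as log2 signals. NS was read as shNS. No source used here defines the heading 5d, which was read as shPLK1, and every direction below depends on this reading. Of 27 listed clusters with chromosome 18 IDs 24 are higher in 5d, and on the arrays exon probe sets of that chromosome averaging 7 log2 units or more were higher in shPLK1 by 0.38 log2 units, with a standard error of 0.022 (limma, adjusted p = 1.05e-07 over the 23 chromosomes). Without that limit on the signal it was 0.17 (standard error 0.0093, limma adjusted p = 6.26e-07). Chromosome 13 is a weaker check. Of its 23 listed clusters 15 are lower in 5d, beside 62.3% of all 491. With the limit on the signal, its shift in shPLK1 was -0.25 log2 units (standard error 0.013, limma adjusted p = 9.67e-08). The averages carry no replicate values and no error. Probe sets of the 4 genes were not identified here on the single arrays, so no test was made of any of them. Arrays of 1 group had a Pearson's r of 0.986 to 0.991 across exon probe sets, and arrays of different groups one of 0.979 to 0.985. No cluster of PLK1 itself is listed, and its knockdown was therefore not examined here. Of 18 marker genes of fibroblasts, keratinocytes, immune and endothelial cells, LYZ, which encodes lysozyme, is the 1 with a listed cluster, with averages of 6.6 in 5d and 7.66 in NS. The table holds changes only, so the levels of melanocyte markers were not used to check the label of the line.

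The ERBB receptors are tyrosine kinases at the cell surface that act in pairs. ERBB3 binds neuregulins but has little kinase activity of its own, signals through a partner such as ERBB2 and recruits PI3-kinase, and it is known in the melanocyte lineage as a receptor that supports growth and differentiation. Neuregulin 1, from NRG1, is a ligand of ERBB3 and ERBB4. Amphiregulin, from AREG, binds the EGF receptor, and heparin-binding EGF-like growth factor, from HBEGF, binds the EGF receptor and ERBB4. Many forms of these ligands are made as membrane proteins and can be released by metalloproteinases.

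In these averages the receptor was lower and the 3 ligands were higher in 5d. Both ERBB3 clusters were lower, while the 4 clusters of NRG1, AREG and HBEGF were all higher. The table as a whole has 306 of 491 clusters lower (62.3%) and 185 higher (37.7%), and since the genes were taken from it, nothing is read from this count.

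ERBB3 had the largest difference of the 4 genes. Its coding cluster, TC12003243.hg.1, averaged 7.64 in NS and 5.52 in 5d, a difference of -2.12 log2 units or 4.35-fold. Its noncoding cluster, TC12002388.hg.1, averaged 6.20 in NS and 3.43 in 5d, which is -2.77 log2 units or 6.82-fold. Both clusters thus pointed the same way, and the noncoding one differed more, by 0.65 log2 units. Among the 306 lower clusters the noncoding one ranked 18th and the coding one 64th by the size of the difference. The median of the lower clusters was -1.47. The 5d average of the noncoding cluster was low for the array, with 24.0% of exon probe sets below that signal in shPLK1, and it was not compared with a detection limit. At the 5d average of the coding cluster, 50.6% of exon probe sets lay below. The files pair no position with these clusters, and their overlap at the locus was not examined.

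**Figure D1:**
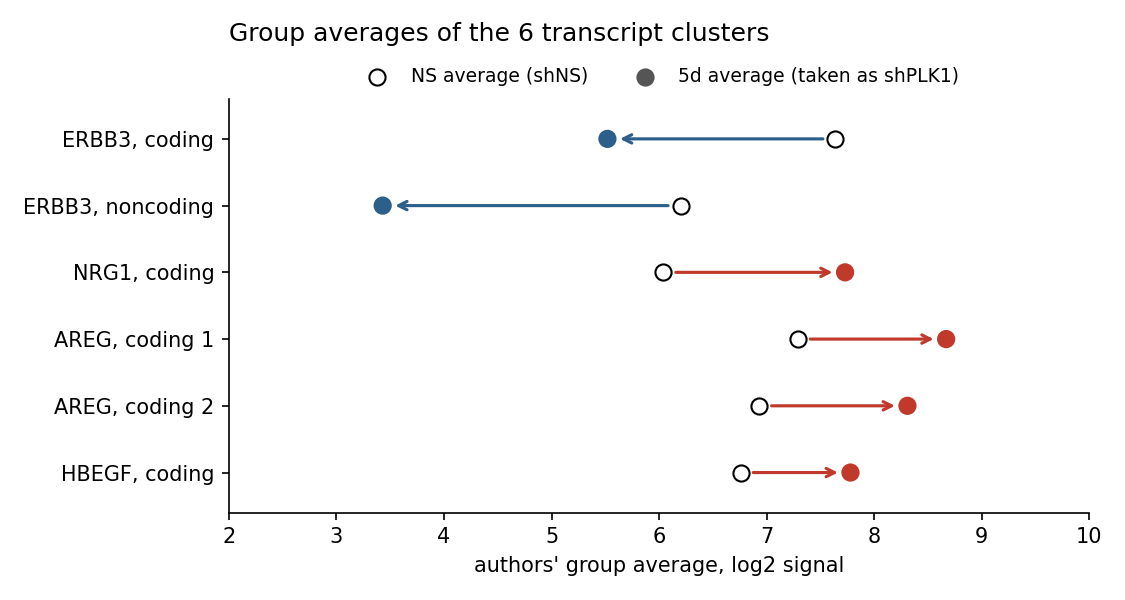
The authors' group averages (log2 signal, x axis) of the 6 clusters (y axis), with open circles for NS, filled circles for 5d, and arrows from NS to 5d in blue where 5d is lower and red where it is higher; the averages carry no error bars because no replicate values belong to them. Both ERBB3 arrows point down the scale, to 5.52 and 3.43, and the 4 ligand arrows point up it.

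NRG1 had the largest difference of the ligands. This gene encodes many forms of neuregulin 1, with and without a membrane anchor, and the table lists 1 coding cluster, TC08000250.hg.1, which does not tell these forms apart. It averaged 6.04 in NS and 7.73 in 5d, a difference of 1.69 log2 units or 3.23-fold. It ranked 27th of the 185 higher clusters, whose median was 1.24.

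AREG has 2 coding clusters, TC04002952.hg.1 and TC04002953.hg.1, and the table describes both as amphiregulin and amphiregulin B. RefSeq (GRCh38.p14) carries AREGB as a synonym of the 1 gene AREG. These clusters may therefore share probes of near-identical copies and are not independent. The first averaged 7.29 in NS and 8.67 in 5d, the second 6.93 in NS and 8.31 in 5d. Both differed by 1.38 log2 units or 2.60-fold. With this difference they shared rank 63 among the higher clusters.

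HBEGF has 1 coding cluster, TC05001854.hg.1, which averaged 6.76 in NS and 7.78 in 5d. Its difference of 1.02 log2 units, or 2.03-fold, is close to the limit of the table. It ranked 171st of 185 higher clusters, and the smallest difference in the table is 1.0 in size. Clusters below the limit are not in the table, so no value just outside it can be given. Of the 4 genes, HBEGF is the one whose place in the table would be lost with a slightly stricter limit.

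Promoter windows are shown for AREG and HBEGF, the 2 of the 4 genes with a matched window. No window of ERBB3 or NRG1 was examined, so the motifs were not compared with the direction of the differences. The windows shown come from RefSeq (GRCh38.p14) and run from 250 bases before to 50 bases after the gene start. AREG lies at chr4:74444886-74445185 on the plus strand and HBEGF at chr5:140346554-140346853 on the minus strand. Both are written 5′ to 3′, and capitals mark matches to the motifs searched.
AREG: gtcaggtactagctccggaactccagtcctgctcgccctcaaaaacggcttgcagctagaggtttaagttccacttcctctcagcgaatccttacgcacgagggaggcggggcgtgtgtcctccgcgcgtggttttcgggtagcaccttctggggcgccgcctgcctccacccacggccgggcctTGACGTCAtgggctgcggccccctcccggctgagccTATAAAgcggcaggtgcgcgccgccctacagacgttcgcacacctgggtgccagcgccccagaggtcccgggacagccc
HBEGF: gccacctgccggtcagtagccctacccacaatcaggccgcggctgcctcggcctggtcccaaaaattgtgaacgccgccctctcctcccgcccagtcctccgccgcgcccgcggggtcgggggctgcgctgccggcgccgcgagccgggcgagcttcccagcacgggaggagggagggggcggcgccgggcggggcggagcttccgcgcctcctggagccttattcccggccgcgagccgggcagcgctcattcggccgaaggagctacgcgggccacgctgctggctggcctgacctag

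The AREG window holds 1 palindromic cyclic AMP response element, TGACGTCA, which starts at base -65 from the gene start, and 1 TATA box, TATAAA, at base -29. Of all 35116 windows of this length, 1.85% hold the former and 11.5% the latter on either strand. The shorter element TGACG (24.6% of windows) was found only inside the full one, on both strands. The HBEGF window holds no match to either motif. Neither window holds an AP-1 site TGANTCA (7.71% of windows), a TEAD site GGAATG (14%), a SOX site ACAAAG (16.1%), an E-box CACGTG (7.26%) or the NF-kB site that was searched (0.191%). The HBEGF window is 75% GC with 38 CpG dinucleotides and the AREG window 66.3% GC with 27, beside medians of 58.7% and 14 over all windows. These are matches of letters, and nothing on the arrays measures binding to them.

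Since levels of different clusters come from different probes, receptor and ligands were compared by their differences between the groups. The difference of coding ERBB3 minus that of NRG1 was -3.81 log2 units, so the signal ratio of receptor to this ligand was 14-fold lower in 5d than in NS. For coding ERBB3 the same quantity was -3.50 against either AREG cluster and -3.14 against HBEGF, or 11.3-fold and 8.82-fold. With the noncoding ERBB3 cluster it ranged from -3.79 (HBEGF) to -4.46 (NRG1). Of these 3 ligands only neuregulin 1 is a ligand of ERBB3 itself. The gap is widest for NRG1 because NRG1 has the largest difference of the ligands, so nothing further is read from it. Every listed cluster differs by at least 2-fold, so any lower cluster set against any higher one gives a gap of this sign by construction. The median differences were -1.47 over all lower clusters and 1.24 over all higher ones. These ratios therefore describe the sizes of the differences and test no relation of receptor to ligands.

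**Figure D2:**
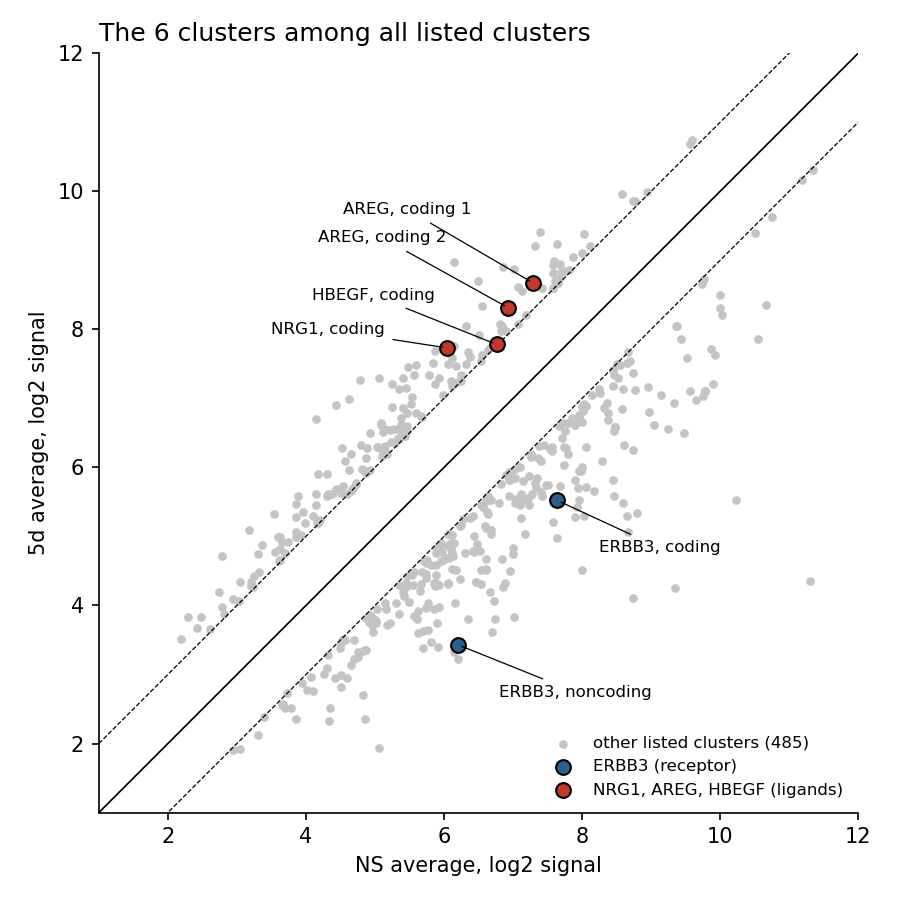
NS average (x axis) against 5d average (y axis), both log2 signals, for the 491 listed clusters; grey points are the clusters of other genes, the solid line marks equal averages and the dashed lines mark 2-fold. Both ERBB3 clusters lie below the lower dashed line at -2.12 and -2.77, and HBEGF, at 1.02, lies next to the upper one.

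The arrays themselves gave the spread that the averages lack, though for single exon probe sets and not for clusters. Within 0.25 log2 units of the 2 averages of coding ERBB3, the median within-group SD was 0.23 in shPLK1 (40904 exon probe sets) and 0.15 in shNS (30006). For the noncoding cluster it was 0.27 (32716) and 0.19 (40481). The differences of ERBB3 were thus 9.32 and 10.2 times the larger of these SDs. For NRG1 the SDs were 0.18 and 0.20, for both AREG clusters 0.16 to 0.17 and for HBEGF 0.18 and 0.17. The differences of the ligands were 8.59 times the larger SD for NRG1, 8.29 and 8.04 times for AREG and 5.64 times for HBEGF. All 6 clusters differed by more than the usual spread of probe sets at their signal, which the 2-fold limit of the table already asks of them. How far these clusters themselves spread between arrays was not measured here.

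Differences of this size were rare among exon probe sets of a like signal in shNS. Of the 30006 around coding ERBB3, 127 (0.423%) were lower in shPLK1 by at least as much, and of the 40481 around the noncoding cluster 39 (0.0963%). For NRG1 93 of 40873 (0.228%) were higher by at least as much, and for AREG 112 of 32391 (0.346%) and 110 of 35691 (0.308%). For HBEGF the count was 340 of 36910 (0.921%), the highest share of the 6. Over all 573909 exon probe sets, limma called 1.99% higher and 2.20% lower in shPLK1 at an adjusted p under 0.05. Around these clusters it called 2.34% to 2.91% higher (ligands) and 2.64% to 3.91% lower (ERBB3). The 4 genes were chosen for their differences, so these shares describe the sizes and do not test them.

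**Figure D3:**
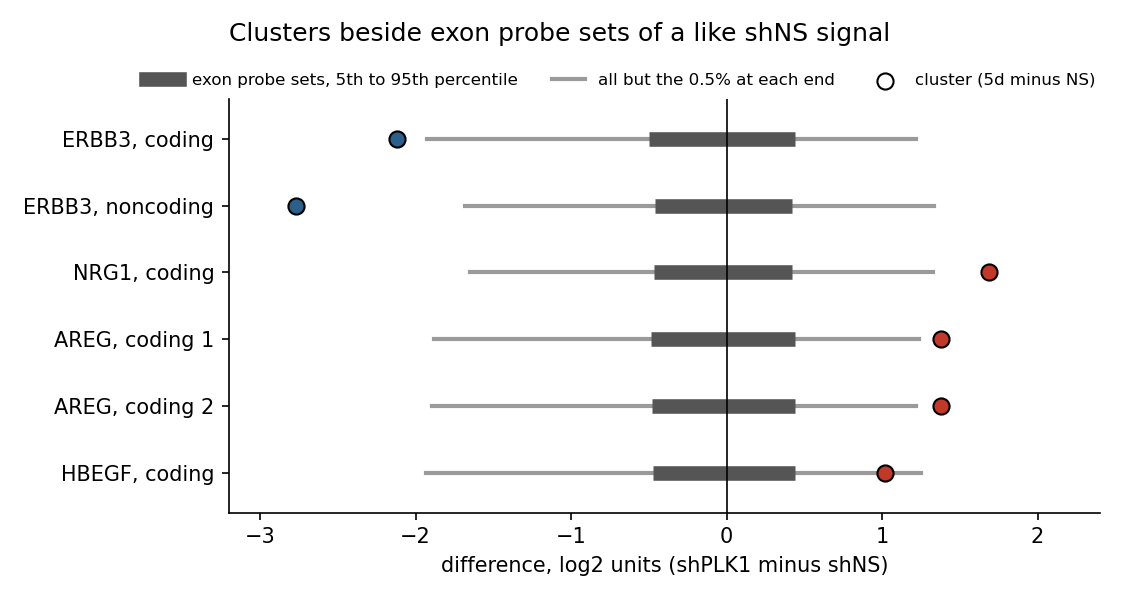
Difference of each cluster (points, 5d minus NS, log2 units, x axis) beside the differences of exon probe sets, shPLK1 minus shNS, whose shNS mean lies within 0.25 log2 units of the NS average of that cluster (thick bars, 5th to 95th percentile; thin lines, all but the 0.5% at each end). The points of ERBB3, NRG1 and AREG lie outside the thin lines, and that of HBEGF, at 1.02, lies inside.

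The chromosomes that hold the 4 genes showed only small shifts on the arrays. To measure a shift, each exon probe set averaging 7 log2 units or more was centred on its 8-array mean, and the median over a chromosome was taken relative to that of all chromosomes. On chromosome 12, which holds ERBB3, it ran from 0.007 to 0.019 in shPLK1 and from -0.016 to -0.0037 in shNS, a difference of 0.023 log2 units (standard error 0.0047, adjusted p = 0.0023 from limma). The groups did not overlap. On chromosome 4, which holds AREG, the difference was -0.024 (standard error 0.0061, adjusted p = 0.0061 from limma, 0.089 over exon probe sets of all levels), and on chromosome 8, which holds NRG1, it was -0.016 (standard error 0.0050, adjusted p = 0.019 from limma, 0.083 with the replicate number as a block). On both of these chromosomes the groups did not overlap. On chromosome 5, which holds HBEGF, the groups overlapped and the difference was -0.0019 (standard error 0.0083, adjusted p = 0.84 from limma). Of all 23 chromosomes 14 (60.9%) passed an adjusted p of 0.05, so a call of this kind was common. Groups without overlap were also found on chromosomes 1, 3, 9, 13, 15, 17, 18, 20, 21 and X. Most of the 23 chromosomes thus had no overlap, and this is not particular to chromosomes 12, 4 and 8. For chromosomes 12, 4 and 8 the two-sided exact permutation test over the arrays gave p = 0.029, the smallest that 4 arrays against 4 allow, and for chromosome 5 p = 0.86. A median over a whole chromosome does not show a change at a single locus, and copy number at the genes themselves was not tested.

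**Figure D4:**
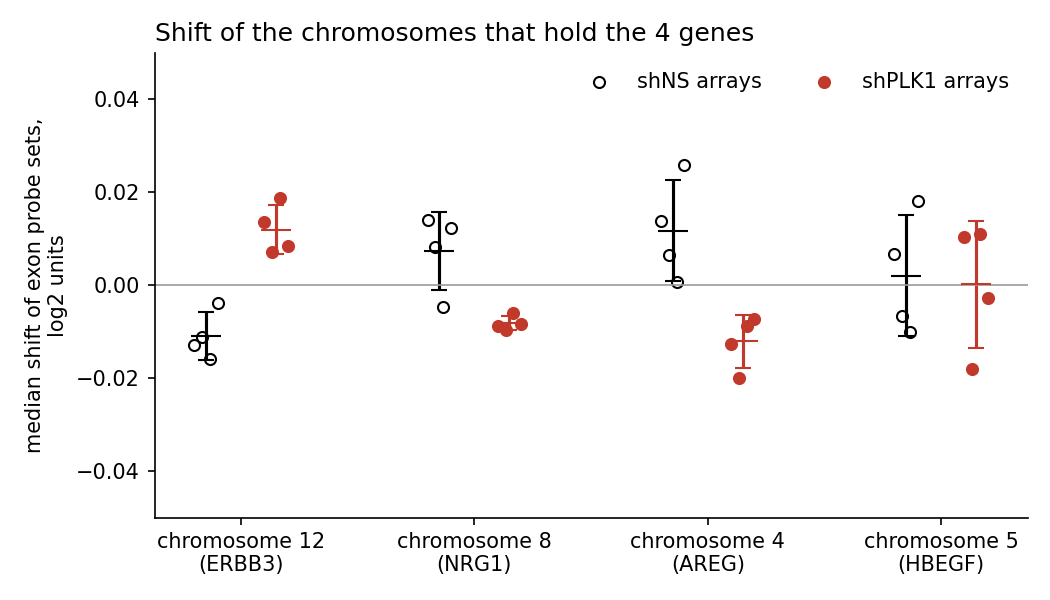
Shift of the chromosomes that hold the 4 genes (x axis) in log2 units (y axis), with 1 point per array and bars for the mean ± SD of 4 arrays (open black, shNS; filled red, shPLK1). The group means differ by at most 0.024 in size.

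Genes next to the 4 members were not in the table. Of the 10 protein-coding genes on either side of each in the RefSeq order (GRCh38.p14), 0 of 80 have a listed cluster, beside 246 of 20052 protein-coding genes (1.23%). The neighbours of AREG include EREG, EPGN and BTC, which encode the EGF family ligands epiregulin, epigen and betacellulin. Those of ERBB3 include RNF41, a ubiquitin ligase that targets ERBB3, PA2G4, which encodes an ERBB3-binding protein, and the pigment cell gene PMEL. A gene without a listed cluster may have changed by less than 2-fold, may have missed the p-value limit of the authors or may have no cluster, so its absence is no measured lack of change.

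Of the other ERBB family genes, none is in the table. EGFR, ERBB2 and ERBB4 have no listed cluster, so ERBB3 is the 1 of 4 receptors with one. Of 7 EGF family ligands AREG and HBEGF are listed and both are higher, and EGF, TGFA, EREG, BTC and EPGN are not listed. Of 4 neuregulins NRG1 alone is listed. The lists of genes were drawn up with earlier results of these data known, so their counts are descriptions.

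Of 11 genes drawn up as inhibitors of ERBB receptors 2 are listed, both lower, in a table where 62.3% of clusters are lower. LRIG3, a membrane protein, averaged 7.73 in NS and 6.04 in 5d (-1.69 log2 units). It was put on this list by its family, and whether LRIG3 itself restrains ERBB receptors was not examined. CBLB, a ubiquitin ligase of activated receptors, averaged 6.94 in NS and 5.93 in 5d (-1.01). Of 12 sheddases and their partners 1 is listed, TIMP3, an inhibitor of the metalloproteinases that release ligands, with 10.75 in NS and 9.63 in 5d (-1.12). ADAM17 and ADAM10, which are sheddases of EGF family ligands, are not listed. Of the 15 adaptors and members of the PI3-kinase and AKT pathway on the list drawn up, none is listed. SHC4, a SHC family adaptor left off that list, has a coding cluster that averaged 5.68 in NS and 4.49 in 5d (-1.19).

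Of 22 genes known as output of the ERK pathway, 2 are lower and 1 is higher. SPRY2, a feedback inhibitor of receptor kinases, averaged 8.38 in NS and 6.79 in 5d (-1.59 log2 units). The ephrin receptor EPHA4 averaged 6.15 and 4.90 (-1.25), and EPHA2, another, was higher at 8.94 and 9.98 (1.04). Other feedback genes, among them DUSP6, DUSP4 and SPRY4, are not listed. Of 13 AP-1 and CREB family factors CREB5 is listed, in a noncoding cluster that averaged 4.43 in NS and 6.90 in 5d (2.47). Of 8 regulators of ERBB3 transcription 1 is listed, FOXO1, a forkhead factor held back by AKT, with 7.36 in NS and 6.13 in 5d (-1.23).

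Of 38 other receptor tyrosine kinases, a list that leaves out EPHA2 and EPHA4 because they stand under ERK output, 3 are listed as lower and 1 as higher. EPHA7, an ephrin receptor, averaged 6.66 in NS and 4.19 in 5d (-2.47 log2 units), and the ephrin receptor EPHA3 averaged 8.73 and 4.11 (-4.62). FLT1, a receptor of vascular endothelial growth factor, averaged 4.69 and 3.50 (-1.19). AXL, a receptor known from dedifferentiated melanoma, averaged 9.56 and 10.68 (1.12). Over the 10 pathway lists, 12 of 130 genes other than the 4 members are listed, 9 lower and 3 higher, with a median difference of -1.21, beside -1.12 over all 491 clusters. Of all protein-coding genes 1.23% are listed, and 62.3% of the listed clusters are lower. The lists were drawn up with these results known and none was tested, so nothing is read from either share.

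**Figure D5:**
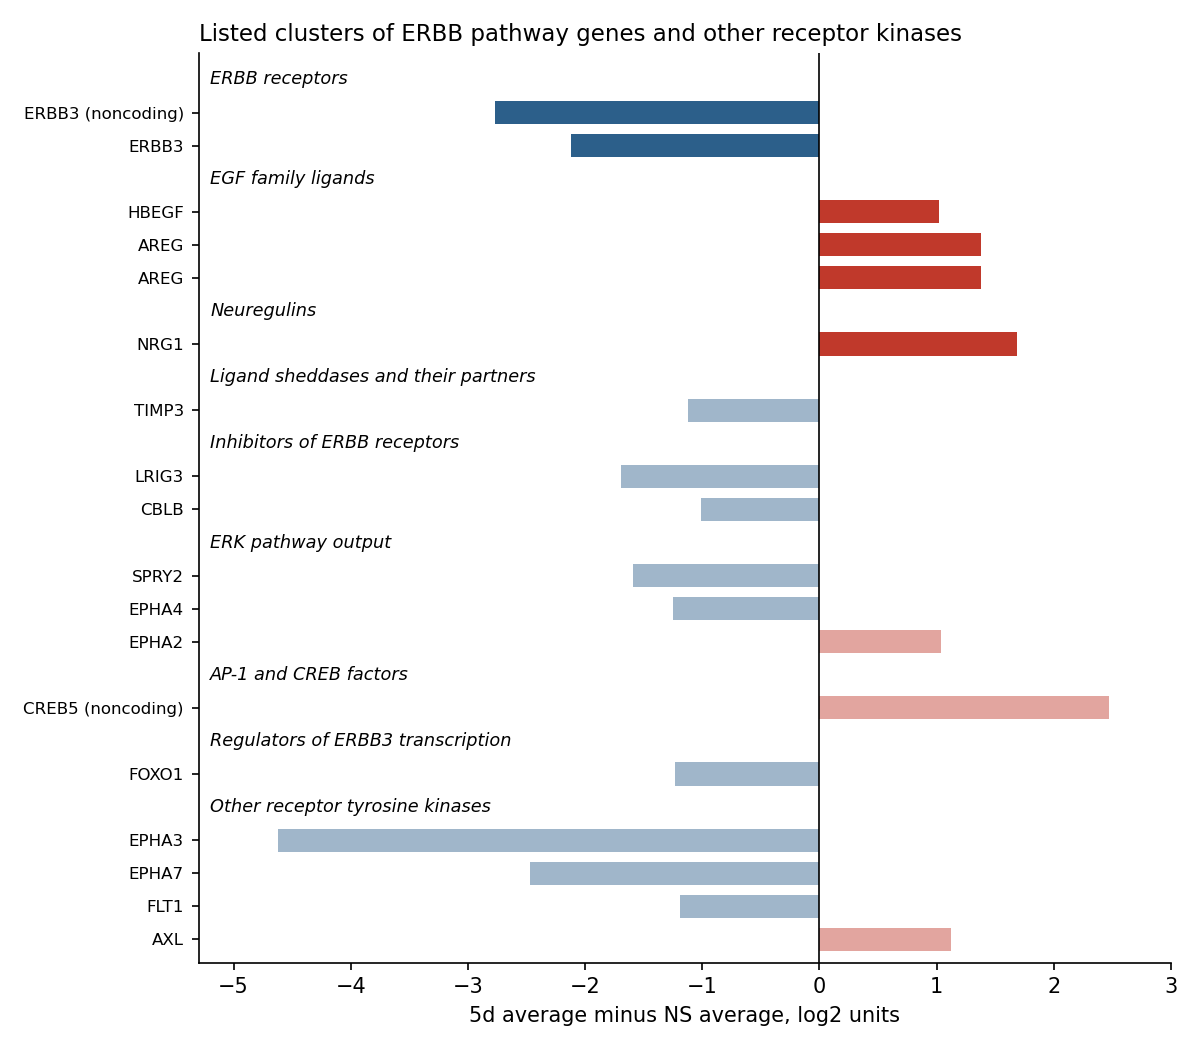
Difference of the 5d and NS averages (x axis, log2 units) for every listed cluster of the 10 pathway lists (y axis; 1 list has no listed gene and is not drawn), red for higher and blue for lower in 5d, in full colour for the 4 genes described here. The bars of ERBB3 reach -2.77 and -2.12 and those of the ligands 1.02 to 1.69.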

How the data were processed

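RNA of 4 A375 shPLK1 and 4 A375 shNS cultures was measured on Affymetrix Human Transcriptome Arrays, with groups and replicate numbers from the sample labels. Methods give 3 replicates per line without naming them. Values on the log2 scale were deposited by the authors after RMA (background correction, quantile normalization and summarisation), once as signals of 573909 exon and 339146 junction probe sets on each array, with no gene names, and once as bi-weight averages of each group for 491 transcript clusters, to 0.01 log2 units. The genome build of the clusters is not given in the sources used here. The fold changes and p-values of the authors' own comparison were not used. From the averages, differences, ranks and counts were computed (Python 3.11.15, pandas 2.3.3, numpy 2.4.6, scipy 1.17.1).

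limma 3.58.1 (R 4.3.3, data.table, version 1.17.8) with group as its only term was fitted to all exon probe sets, with Benjamini-Hochberg adjustment and a threshold of 0.05, and to the shifts of 23 chromosomes read from the probe set IDs. The fit was also run on simulated data with independent noise for each probe set, without the chromosome-wide shifts of these arrays. The outcome of that run is not used as support here. The number of arrays limits the precision. Alternatives were the replicate number as a block, junction probe sets, a filter on low signals, an ordinary equal-variance test, a wider window of 0.5 log2 units, other units of clusters and each array left out. Members and gene lists were chosen with earlier results of these data known. Named genes were the 4 members and every gene of the lists that has a cluster in the table, neighbours in the gene order and absent family members being named as such. SHC4 is named besides, as an adaptor left off the lists. Ranks of levels, and the 3 symbols nearest to each member by both averages, had been planned and were left out, since different clusters have different probes.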

Additional observations from a re-analysis of the deposited data

How the results depend on the processing

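The averages of the table have 1 value per group, so no array could be left out of them. The difference of ERBB3 moved from -2.12 in the coding cluster to -2.45 (log2 units) as the mean over both clusters, and 94.1% of all lower clusters had a smaller difference than its noncoding cluster. For its coding cluster this was 77.8% of all lower clusters and 76.3% of the coding ones. The 7 other ranks stayed within 95% binomial intervals, a set limit and no measure of error, since the listed clusters are the whole table. The 24 alternative spreads around the clusters moved by less than 1 SD of the SDs of single probe sets, a wide limit for a median. With junction probe sets the median SD near the 5d average of noncoding ERBB3 was 0.34 instead of 0.27. The count of exon probe sets higher in shPLK1 went from 11422 to 7432 with an ordinary equal-variance test. With each array left out it ranged from 8140 to 9614, and the lower count from 9800 to 11198. Same-numbered arrays did not deviate together (r = -0.145 to 0.042 over 4 pairs). Arrays of different numbers and groups had an r of -0.199 to 0.163. No pairing by number was seen, but a shared day or batch was not tested. With the replicate number as a block 8077 were higher and 9161 lower. On chromosome 8 the shift of -0.016 then had an adjusted p of 0.083 from limma. It ranged from -0.019 to -0.013 with each array left out and missed the threshold without shPLK1 replicate 2, shNS replicate 1 or shNS replicate 2 (adjusted p = 0.052 to 0.067 from limma). The chromosome 4 shift was -0.020 over exon probe sets of all levels (adjusted p = 0.089 from limma) and ranged from -0.0285 to -0.0188 with each array left out. The chromosome 5 shift, which passed no threshold, ranged from -0.0067 to 0.0044 and changed sign without shPLK1 replicate 2, shPLK1 replicate 4 or shNS replicate 4. The chromosome 12 shift kept its direction and its call under every alternative run (0.020 to 0.025 with each array left out).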

Other observations

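ERBB3 is 1 of 36 symbols with both a coding and a noncoding cluster in the table. In all 36 both classes differ in the same direction, and in 24 the noncoding difference is the larger in size, with a median gap of 0.115 log2 units. The gap of ERBB3, 0.65, ranks 8th. The classes are labels of the table, and some symbols named as long noncoding RNAs have a cluster classed as coding. The pairs are therefore no comparison of messenger RNA with noncoding RNA. Because the table holds only clusters past 2-fold, symbols whose other class changed less or in the opposite direction without passing are not in this count.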
